A study of Rattus norvegicus with 12 samples.

Results

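The 8 genes described here make, move, sense and remove adenosine: the receptor genes Adora1, Adora2a and Adora2b, the ectoenzyme genes Entpd1 and Nt5e, the transporter gene Slc29a1, and the enzyme genes Ada and Adk. They were taken by gene name from the deposited count table, in which 8 of 8 were found among 16002 gene IDs, and 7 had enough reads to enter the fit with 11398 genes in all. They were chosen by function, and no measured value enters the rule, but earlier results of these data (CPM and differences between the groups) were known at the choice, so the differences of these 8 genes between groups are given as a description, without p-values. The cells were H9C2, an established line of myoblasts from rat heart. Control cells stayed in normal oxygen with no virus. Cells of the H/R group received a lentivirus without insert, were held for 8 h in 1% oxygen (hypoxia) and returned to normal oxygen for 2 h (reoxygenation). The LITAF group carried a lentiviral vector that overexpresses LITAF, a membrane protein of late endosomes and lysosomes, and went through the same H/R. Each group had 4 libraries. The control cells had neither vector nor H/R, so a difference from control cannot be assigned to the vector or to H/R.

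Adenosine forms outside the cell when ATP that leaks or is released from stressed cells is cut to AMP by the ectonucleotidase that Entpd1 encodes (CD39) and AMP is cut to adenosine by the ecto-5'-nucleotidase that Nt5e encodes (CD73). It is sensed by G protein-coupled receptors: the Adora1 receptor couples to inhibitory G proteins and lowers cAMP, and the Adora2a and Adora2b receptors couple to stimulatory G proteins and raise it. The Slc29a1 product, the equilibrative transporter ENT1, carries adenosine across the membrane, after which adenosine kinase (Adk) returns it to AMP and adenosine deaminase (Ada) turns it into inosine. In the heart the pathway is known for slowing the beat and for protection in ischaemia. Nt5e and Adora2b are known in several tissues as genes raised in hypoxia through the factor HIF.

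Of the 8 genes, 7 had a promoter entry in RefSeq (build GRCr8, 250 bases before to 50 after an annotated start), and the entry for Adora2a was missing. The build behind the counts is not given in the sources used here. The windows of 4 genes are shown, Adora1 and Slc29a1 because they had the largest changes over the pair of steps from control to H/R and from H/R to LITAF, and Nt5e and Adora2b because of their known link to hypoxia. Capitals mark the core of the HIF binding motif (ACGTG or GCGTG) and the E-box forms CAGCTG and CAGGTG, which muscle regulators of the MyoD family bind, each searched on both strands. The motifs do not overlap each other in these windows.
Adora1, chr13:48246782-48247081, minus strand: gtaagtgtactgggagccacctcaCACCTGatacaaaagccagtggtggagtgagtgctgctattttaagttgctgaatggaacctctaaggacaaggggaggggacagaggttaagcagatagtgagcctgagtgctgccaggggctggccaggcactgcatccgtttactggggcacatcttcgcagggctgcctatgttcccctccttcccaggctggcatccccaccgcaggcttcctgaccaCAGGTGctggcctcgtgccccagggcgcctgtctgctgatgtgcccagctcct
Slc29a1, chr9:22896849-22897148, plus strand: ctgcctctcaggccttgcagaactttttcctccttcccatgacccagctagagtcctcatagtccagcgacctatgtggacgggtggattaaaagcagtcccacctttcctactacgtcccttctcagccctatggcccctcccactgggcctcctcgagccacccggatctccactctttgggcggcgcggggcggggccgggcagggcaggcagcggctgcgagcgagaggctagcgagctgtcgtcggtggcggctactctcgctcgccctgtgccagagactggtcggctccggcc
Nt5e, chr8:98150675-98150974, plus strand: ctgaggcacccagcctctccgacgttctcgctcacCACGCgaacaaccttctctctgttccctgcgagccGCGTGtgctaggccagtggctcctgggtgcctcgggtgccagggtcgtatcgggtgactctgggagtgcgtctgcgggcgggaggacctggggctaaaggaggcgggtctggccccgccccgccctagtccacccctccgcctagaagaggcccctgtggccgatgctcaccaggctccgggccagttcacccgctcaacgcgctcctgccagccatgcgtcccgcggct
Adora2b, chr10:47439462-47439761, plus strand: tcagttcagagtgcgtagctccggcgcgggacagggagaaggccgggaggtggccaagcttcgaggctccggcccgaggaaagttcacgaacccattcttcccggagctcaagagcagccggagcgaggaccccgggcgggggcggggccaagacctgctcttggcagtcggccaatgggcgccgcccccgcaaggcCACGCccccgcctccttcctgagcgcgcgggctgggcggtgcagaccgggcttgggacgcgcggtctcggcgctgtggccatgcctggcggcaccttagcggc
The Nt5e window held 2 HIF cores, which began 215 and 180 bases before the start, and the Adora2b window held 1, 53 bases before it. The Adora1 window held 2 E-boxes of the form CAGGTG, which began 226 and 3 bases before the start, and no HIF core. The Slc29a1 window held neither motif. Of the windows not shown, that of Ada held 1 HIF core, 32 bases before the start, and that of Adk held 1 E-box (CAGCTG). The Entpd1 window held neither, and it lies 48054 bases inside the outermost annotated start of the gene. Among all 33469 RefSeq windows of this length, 41.6% held a HIF core and 30.8% held 1 of the E-box forms, so a match is common. For Adora1 the window lies 995 bases inside the outermost annotated start of the gene, and which start the cells used was not measured.

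Each control library held 19.2 to 20.7 M reads, each H/R library 16.9 to 18.1 M, and each LITAF library 17.2 to 18.4 M. Litaf itself was at 456 to 491 CPM (reads per M, TMM-scaled) in control, 549 to 619 CPM in the H/R group and 2008 to 2691 CPM in the LITAF group, highest in the group labelled as overexpressing it. The labels give no split of the libraries into batches and call the replicates biological. They do not say whether each was a separate culture, so the errors here cover only how these libraries vary. Of 8 cardiomyocyte markers 8 were in the table, with a summed level of 177 to 410 CPM in control, 63.3 to 92.7 CPM in the H/R group and 148 to 204 CPM in the LITAF group. Most of it came from Tnnt2. Nkx2-5 went the other way, from 6.84 ± 1.64 to 16.5 ± 2.84 CPM (SD, n = 4) between control and H/R, while Nppa and Tnni3 were at or near 0 and Tbx20 at 0. Some myoblast markers were present, with Cdh15 at 363 to 584 CPM over the 12 libraries. Others of that list were low: Chrna1 averaged 0.224, 0.165 and 0.738 CPM in control, H/R and LITAF, and Myf5 was at or near 0. In bulk RNA, fewer cells of a type and less RNA per cell cannot be told apart.

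In 3 of the 7 tested genes, control and H/R libraries of the same number resembled each other, which comes before any difference from control. Deposited counts of Ada were 17, 24, 6 and 14 in control libraries 1 to 4 and 12, 15, 4 and 9 in H/R libraries 1 to 4. The control count was 1.42 to 1.60 times the H/R count of the same number in all 4 pairs. Counts of Slc29a1 were 63, 42, 91 and 28 in control and 11, 10, 16 and 6 in the H/R group, and those of Adora1 were 2438, 1450, 2253 and 1373 against 42, 30, 39 and 24. In these 3 genes the order of the 4 libraries was the same in both groups. That holds for 3 of the 7 tested genes and for 13.2% of all tested genes, against 0 of 7 and 4.11% between the H/R and LITAF libraries. These orders are of counts not scaled for depth. The library totals were themselves in the same order in control and H/R, and in another order in LITAF. The 3 genes kept the same order in CPM as well. For all tested genes, the part of depth in these shares was not tested. The labels name no shared source for libraries of 1 number. Fractional values were 2.79 to 3.34% of each control library, but 11.1 to 12.3% of each H/R or LITAF library. With the replicate number as a block in the fit, the same 5 of the 7 genes were lower in H/R than in control. How the fractional values bear on the differences from control was not tested.

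**Figure D1:**
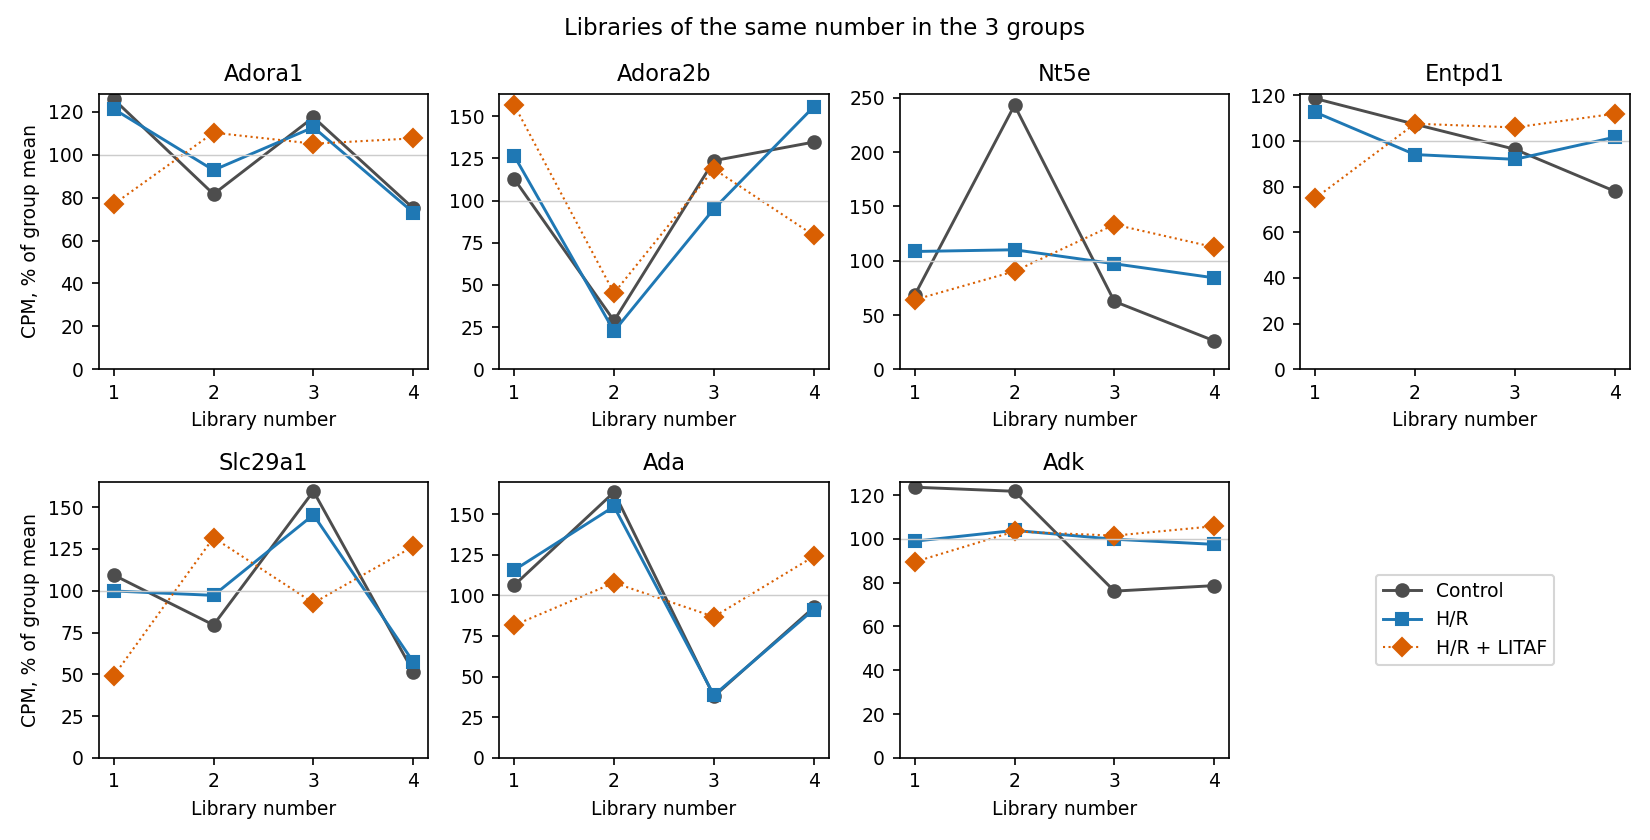
CPM of each library as a percentage of its group's mean (vertical axis, starting at 0) against the library number (horizontal axis) for the 7 tested genes, with control as circles, H/R as squares and H/R + LITAF as diamonds. Numbers are labels and have no order. The control and H/R lines nearly coincide in Ada, where the count ratios were 1.42 to 1.60, and keep the same order of libraries in Adora1 and Slc29a1.

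The receptor gene Adora1 had the largest difference from control of the 8 genes. Its levels were 124, 80.6, 116 and 74.0 CPM in control, 2.24, 1.71, 2.08 and 1.35 CPM in the H/R group, and 3.58, 5.13, 4.89 and 5.01 CPM in the LITAF group. The 3 groups were fully apart, with control highest and the H/R group lowest. From control to H/R the level went from 98.7 ± 25.1 to 1.84 ± 0.398 CPM (SD, n = 4), a 53.2-fold fall (log2 -5.73 ± 0.22, SE), and only 5 of 11398 genes had a lower log2 change. From H/R to LITAF it went to 4.66 ± 0.723 CPM, 2.51-fold higher (log2 1.33 ± 0.23). Even so, the LITAF group stood 21.2-fold under control (log2 -4.40 ± 0.20).

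Adora2b, the low-affinity receptor that answers to high adenosine, had few reads. Its levels were 2.40, 0.611, 2.62 and 2.86 CPM in control, 0.639, 0.114, 0.480 and 0.785 CPM in the H/R group, and 0.568, 0.164, 0.430 and 0.288 CPM in the LITAF group. Control library 2 lay within the range of the H/R group, and the other 3 control libraries lay above it. The H/R group was 4.16-fold under control (log2 -2.06 ± 0.47), and the LITAF group differed from the H/R group by log2 -0.48 ± 0.60, with overlapping libraries. With 2 to 14 reads per H/R library, the SE was larger than that difference. Whether a change of that size could be detected at this depth was not tested.

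Adora2a had 6 reads over the 12 libraries and was at 0 in 8 of them, and Adora3, the remaining adenosine receptor gene, had 1 read in all. A count of 0 allows up to 3 reads per library, which is 0.153 to 0.173 CPM, and this limit covers counting error only. No fold is given for either gene.

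Of the genes that make adenosine outside the cell, Entpd1 was lower in both H/R groups. It stood at 64.8, 58.6, 52.6 and 42.6 CPM in control, 19.3, 16.1, 15.8 and 17.4 CPM in the H/R group, and 11.7, 16.8, 16.6 and 17.5 CPM in the LITAF group. Control lay above both other groups, which overlapped each other. The H/R group was 3.18-fold under control (54.7 ± 9.45 to 17.2 ± 1.60 CPM, SD, n = 4, log2 -1.67 ± 0.15), and LITAF differed from H/R by log2 -0.13 ± 0.15. Entpd1 is also a marker of endothelium and leukocytes. The 7 endothelial markers found of 8 summed to 0.228 to 1.48 CPM in any library, and the 6 leukocyte markers found of 8 to 1.24 to 2.56 CPM. The defining endothelial gene Cdh5 was at 0 in 11 of 12 libraries.

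Nt5e, which encodes the last step to adenosine, was low. It was at 1.12, 4.00, 1.03 and 0.431 CPM in control, 1.01, 1.03, 0.906 and 0.785 CPM in the H/R group, and 0.853, 1.20, 1.78 and 1.5 CPM in the LITAF group. The 3 groups overlapped. The difference of H/R from control was log2 -0.80 ± 0.49 and that of LITAF from H/R was log2 0.51 ± 0.50, and neither passed the threshold of the fit. Control library 2 decided the sign of the first: without it the value was log2 0.11 ± 0.34. Without control library 4 it was log2 -1.12 ± 0.44 and passed the threshold. Nt5e was the only one of the 8 genes with counts that were not whole, in 9 of 12 libraries.

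Slc29a1, the transporter gene, was lowest in the H/R group. Its levels were 3.21, 2.33, 4.68 and 1.51 CPM in control, 0.586, 0.570, 0.853 and 0.337 CPM in the H/R group, and 1.14, 3.06, 2.15 and 2.94 CPM in the LITAF group. Each H/R library lay below each library of the other 2 groups, and control and LITAF overlapped. The H/R group was 4.95-fold under control (log2 -2.31 ± 0.40), the LITAF group was 3.91-fold above H/R (log2 1.97 ± 0.41), and LITAF minus control was log2 -0.34 ± 0.33. Only 26 of 11398 genes had a higher log2 change from H/R to LITAF. The counts behind these levels were 6 to 16 reads per H/R library and 20 to 56 per LITAF library.

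The 2 enzyme genes that remove adenosine differed less. Adk was at 215, 211, 132 and 137 CPM in control, 111, 116, 112 and 109 CPM in the H/R group, and 86.5, 99.95, 98.1 and 102 CPM in the LITAF group. The groups did not overlap. Control split into a higher pair of libraries and a lower pair, a gap wider than the step from that lower pair to the H/R group. The H/R group was 1.55-fold under control (log2 -0.64 ± 0.15), and LITAF differed from H/R by log2 -0.21 ± 0.15, which did not pass the threshold. Ada was at 0.309 to 1.33 CPM in control, 0.213 to 0.855 CPM in the H/R group and 0.455 to 0.691 CPM in the LITAF group, with overlap throughout, at log2 -0.55 ± 0.42 for H/R against control and 0.02 ± 0.45 for LITAF against H/R.

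**Figure D2:**
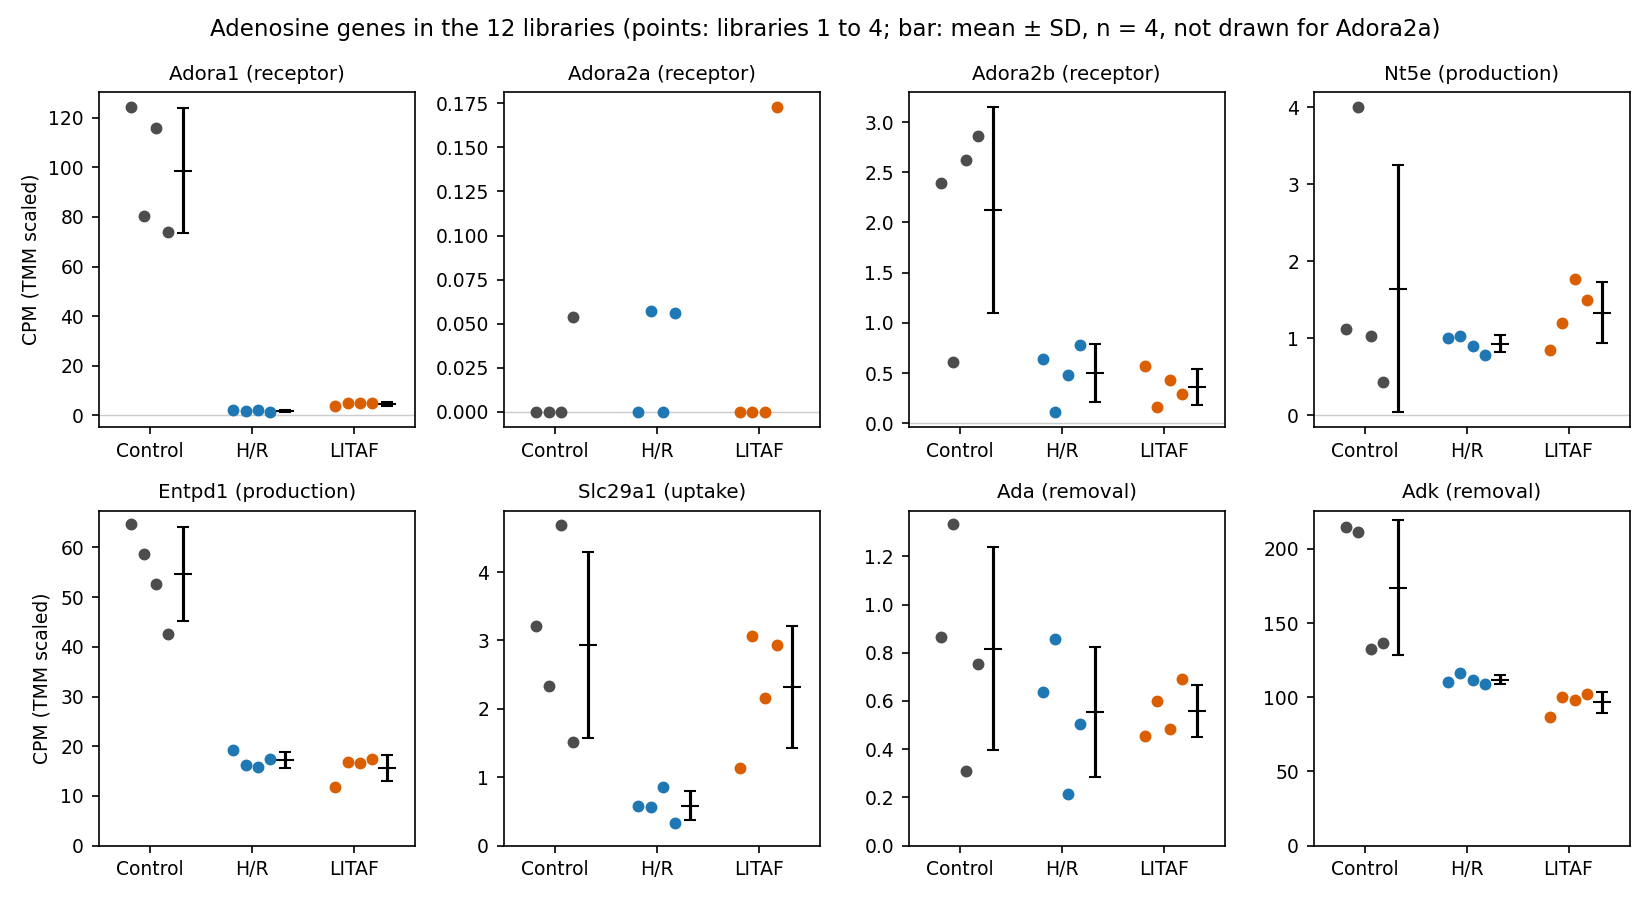
Level in CPM (vertical axis, linear, a scale for each gene) of the 8 genes in the 4 libraries of each group (horizontal axis: control, H/R, and H/R + LITAF labelled LITAF), with mean ± SD beside the points except for Adora2a. Adora1 goes from 74.0 to 124 CPM in control to under 6 CPM in both other groups, and Slc29a1 is lowest in the H/R group.

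Counted by edgeR's quasi-likelihood test with Benjamini-Hochberg adjustment at 0.05 over all genes, 5 of the 7 tested genes (Adora1, Adora2b, Entpd1, Slc29a1 and Adk) were lower in H/R than in control, where 31.8% of all tested genes were called lower and 63.6% in either direction. None was called higher, also at an unadjusted p under 0.05, and DESeq2 gave the same counts. In LITAF against H/R, 2 of 7 (Adora1 and Slc29a1) were called higher, where 3.73% of all tested genes were called higher and 4.88% in either direction, and none lower by edgeR, by DESeq2 or at an unadjusted p under 0.05. In LITAF against control, 4 of 7 were called lower (all of the 5 but Slc29a1), where 32.6% of all tested genes were, and none higher, where 32% were. In LITAF against H/R, Adora1, Slc29a1 and Adk had groups that did not overlap, as did 18.9% of all tested genes, and Adora1 and Slc29a1 were past 2-fold, as were 1.8%. In LITAF against control the groups of Adora1, Adora2b, Entpd1 and Adk did not overlap, as in 52.1% of all tested genes, and in H/R against control those of Adora1, Entpd1, Slc29a1 and Adk did not, as in 58.6%. The first 3 were also past 2-fold from control to H/R along with Adora2b, as were 22.7% of all tested genes, and in LITAF against control Adora1, Adora2b and Entpd1 were, as were 24.2%. The genes were listed with such results known. Adora2b passed the filter on low counts through its control libraries, and Slc29a1 through its control and LITAF libraries. For these reasons nothing is read from these counts. The median log2 difference over the 7 was -1.67 for H/R against control and 0.02 for LITAF against H/R, beside 0.01 and -0.01 over all tested genes. The comparisons share libraries: the H/R group enters both of the first 2.

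**Figure D3:**
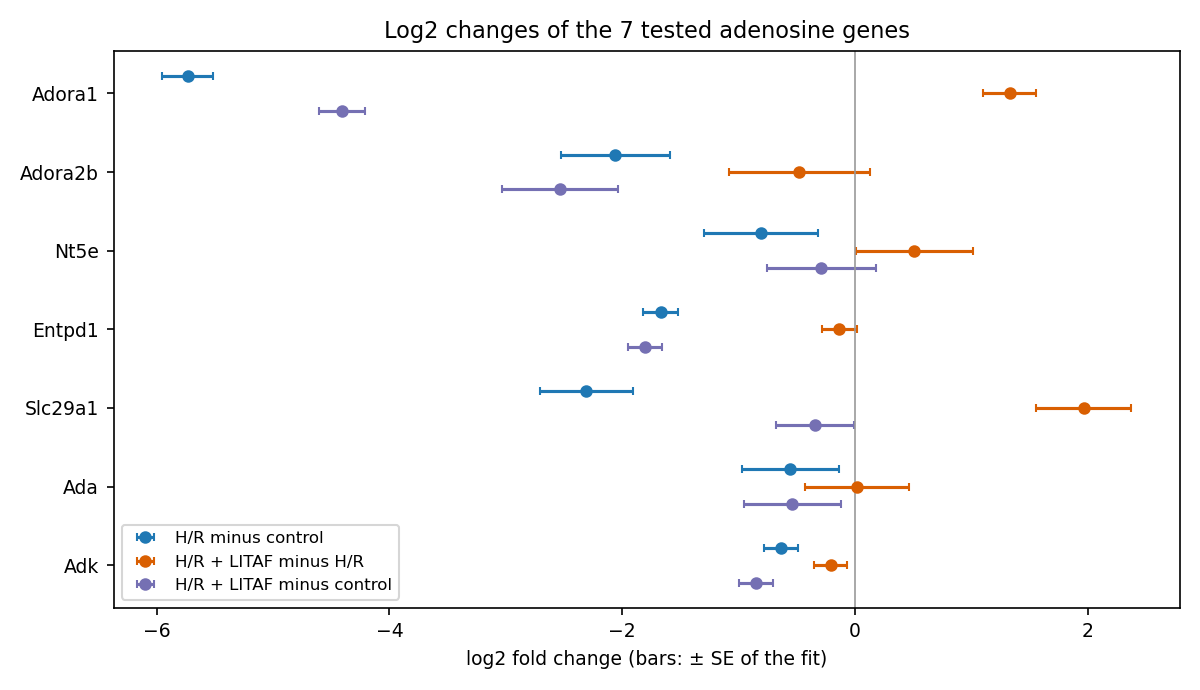
Log2 fold changes of the 7 tested genes (horizontal axis) with bars of ± 1 SE of the fit, for the 3 pairs of groups. Adora1 has the lowest value, -5.73 for H/R minus control, and Adora1 and Slc29a1 stand at 1.33 and 1.97 for LITAF minus H/R.

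Within the LITAF group the libraries differed in these genes. Library 1 had the most Litaf (2691 CPM) and the lowest level of 6 of the 7 tested genes, all but Adora2b. It was the lowest library in 39.5% of all tested genes. Litaf was at 2691, 2008, 2532 and 2120 CPM in LITAF libraries 1 to 4, and Adora1 and Slc29a1 followed exactly the opposite order, as did 21.3% of all tested genes. Without LITAF library 1 the log2 change from H/R was 1.46 ± 0.23 for Adora1 and 2.21 ± 0.38 for Slc29a1. With 4 libraries no relation between these levels was computed.

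Markers of muscle and of other cell types also differed between the groups. The 6 of 6 skeletal myoblast markers found summed to 2195 to 6451 CPM in control, 507 to 641 CPM in the H/R group and 501 to 565 CPM in the LITAF group. Most of the difference was in Myog, a driver of muscle differentiation, at 1257 to 5730 CPM, 4.99 to 19.6 CPM and 18.02 to 39.5 CPM in the 3 groups. The 5 of 6 fibroblast markers found summed to 52911 to 70082 CPM, 22214 to 25262 CPM and 26057 to 34046 CPM, with Dcn at 0. Among the myoblast markers Des went the other way, from 3.70 ± 0.676 to 12.97 ± 0.535 CPM (SD, n = 4) between control and H/R. The 4 of 5 smooth muscle markers found summed to 3817 to 4803 CPM, 6218 to 6644 CPM and 5085 to 7880 CPM, mostly Acta2. From control to H/R, Acta2, Tagln and Cnn1 were higher and Myh11 was lower (30.2 ± 6.75 to 8.20 ± 1.61 CPM). The part of these shifts in the adenosine genes was not tested.

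For the 3 of the 8 genes with the largest changes, the nearest genes were those with the smallest distance between pairs of log2 changes (H/R minus control and LITAF minus H/R), over 12 libraries in 3 groups. Closest to Adora1 were Islr (log2 -5.34 and 1.07, distance 0.47), Igfbp5 (log2 -5.09 and 1.15, distance 0.67), which encodes a binding protein of insulin-like growth factors, and Olfml2a (log2 -4.82 and 1.33, distance 0.91). Igfbp5 went from 202 to 5.91 and then 13.1 CPM. Islr went from 10.8 to 0.262 and then 0.553 CPM, and Olfml2a from 10.7 to 0.373 and then 0.944 CPM. Both thus had few reads in the H/R and LITAF groups, where their changes are imprecise. Closest to Slc29a1 were the early response gene Egr1 (log2 -2.13 and 1.98, distance 0.18), the chemokine gene Ccl2 (log2 -2.15 and 2.06, distance 0.19) and the embryonic myosin gene Myh3 (log2 -2.08 and 2.15, distance 0.29). Closest to Adora2b were Depdc1, Pigb and Sgk3, at distances of 0.02, 0.02 and 0.05. The SE of the changes of Adora2b (0.47 and 0.60) and of Slc29a1 (0.40 and 0.41) were larger than the distances given for them. Which genes lie nearest to these 2 is therefore imprecise.

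Beyond the 8 genes, 109 genes of the pathway were listed by role, of which 98 were found and 62 tested. They too were listed with earlier results of these data known, so their shares and adjusted p-values are given as a description. In H/R against control, 34 of 62 passed (54.8%), 11 higher and 23 lower, against 63.6% of all tested genes. In LITAF against H/R, 1 of 62 passed (1.61%), against 4.88% of all tested genes. In the LITAF against control comparison 34 of 62 passed, 11 higher and 23 lower, against 64.6% of all tested genes. The median log2 difference of the list was -0.24, 0.02 and -0.15 in that order of comparisons, beside 0.01, -0.01 and -0.01 over all genes.

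Of 9 genes for nucleotide release and other ectonucleotidases, 3 rose in H/R and 6 did not pass. Enpp3, a phosphodiesterase that cuts extracellular ATP, rose from 0.901 ± 0.114 to 2.08 ± 0.326 CPM (SD, n = 4), log2 1.21 ± 0.23 (edgeR adjusted p = 0.00024), higher in 4 of 4 libraries. Its relative Enpp1, which makes AMP and pyrophosphate from ATP, rose 1.47-fold (33.3 to 49.0 CPM, adjusted p = 0.000279 by edgeR). Vdac1, the mitochondrial outer membrane channel, rose 1.98-fold. Thus these 2 ATP-cutting enzymes were higher in the H/R group while Entpd1 was lower. The LITAF group had 3.11 CPM of Enpp3 and 59.9 CPM of Enpp1, and these differences from H/R did not pass (adjusted p = 0.114 and 0.135 by edgeR). Entpd3 stood at log2 1.03 ± 0.41 in LITAF against H/R, adjusted p = 0.17 by edgeR, from 0.371 CPM.

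Of 9 tested genes listed under adenosine production inside the cell, 1 rose and 3 fell in H/R. That list also holds relatives of the producing enzymes, so this is not a count of adenosine-making enzymes. Nt5c1b, a cytosolic nucleotidase that acts on AMP, fell from 6.88 ± 0.474 to 1.29 ± 0.284 CPM, log2 -2.41 ± 0.21 (edgeR adjusted p = 5.58e-08). Ahcyl1 (log2 -0.71 ± 0.10), a relative of the enzyme that frees adenosine from S-adenosylhomocysteine, and the nucleotidase gene Nt5c3b (log2 -0.58 ± 0.12) also fell, and Nt5c3a rose (log2 0.53 ± 0.10). Ahcy itself stood at log2 -0.11 ± 0.14 and did not pass. In LITAF against H/R, 0 of 9 passed by edgeR's test, and Nt5c1b was at 1.29 CPM in both groups.

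Of the 6 other nucleoside transporter genes listed, 2 had enough reads to be tested. Slc29a2 was at 30.7 ± 2.96, 35.6 ± 2.28 and 27.7 ± 2.87 CPM in control, H/R and LITAF, with a difference of LITAF from H/R of log2 -0.36 ± 0.11, adjusted p = 0.0692 by edgeR's test, which passed in 3 of 16 alternative fits. Slc29a3, which works in lysosomes and mitochondria, fell in H/R (log2 -0.65 ± 0.11, adjusted p = 9.01e-05 by edgeR) and was at 13.2 CPM in both H/R groups. Slc29a4, too low to be tested, was at 0.0533 to 0.106 CPM in the H/R group and 0.115 to 0.455 CPM in the LITAF group. The H/R values and the lowest LITAF value lay under the 0.153 to 0.173 CPM that a count of 0 allows. No change is read from them. Whether these transporters differ from Slc29a1 in their change was not tested.

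Of 11 genes for deamination, salvage and breakdown, 4 rose and 5 fell in H/R. Xdh, the oxidoreductase that turns hypoxanthine into uric acid, was at 123, 158, 147 and 181 CPM in control and 47.3, 46.1, 43.2 and 48.0 CPM in the H/R group, 3.30-fold lower (log2 -1.72 ± 0.11, edgeR adjusted p = 1.75e-09). Pnp, which splits inosine, was 2.50-fold lower (187 ± 28.9 to 74.9 ± 0.944 CPM). The AMP deaminase gene Ampd3 was 2.38-fold lower, and the adenylate kinase gene Ak3 fell (log2 -0.71 ± 0.10). The 4 that rose did so by log2 0.28 to 0.51 (Mtap, Ak1, Ampd2 and Adsl).

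Ampd3, which deaminates AMP before it can become adenosine, was the 1 gene of the 62 that passed in LITAF against H/R. It was at 1.97, 2.00, 1.65 and 2.69 CPM in the H/R group and 5.29, 2.62, 3.87 and 3.80 CPM in the LITAF group, log2 0.90 ± 0.22 (edgeR adjusted p = 0.0264). LITAF library 2 lay within the range of the H/R group and the other 3 above it. The call was lost without H/R library 1, 2 or 3 or LITAF library 3 or 4, at adjusted p from 0.0649 to 0.103. Over the 16 alternatives the adjusted p ran from 0.00545 to 0.103. With library totals alone or with DESeq2, 1 gene rose and 2 fell. With upper-quartile scaling or DESeq2's size factors, 1 rose and 1 fell, and without LITAF library 1, 4 rose and 1 fell. Hprt1, the salvage enzyme for hypoxanthine, stood at log2 -0.38 ± 0.11 with adjusted p = 0.0519 by edgeR.

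Of 5 tested P2 receptor genes, which sense ATP and other nucleotides, 2 fell in H/R: P2rx5 (23.9 ± 4.37 to 12.5 ± 0.916 CPM, log2 -0.93 ± 0.13) and P2rx6 (log2 -2.06 ± 0.52), the latter at 1.18 CPM in control. P2rx6 had few reads: the filter on low counts kept it in 15 alternative fits of this comparison, against 16 for LITAF against control. Its H/R libraries were the low side, so nothing further is read from its call. In LITAF against H/R, 0 of 5 passed by edgeR's test. Of the 26 genes for G proteins and cAMP signalling, 3 rose and 12 fell in H/R. Rapgef4, which encodes the cAMP sensor EPAC2, was at 399 to 540 CPM in control and 35.3 to 44.2 CPM in the H/R group, 11.1-fold lower (log2 -3.47 ± 0.15, edgeR adjusted p = 1.27e-11). The cAMP phosphodiesterase genes Pde3b (log2 -1.98 ± 0.17), Pde4b (log2 -1.89 ± 0.18), Pde4a (log2 -1.72 ± 0.15) and Pde4d (log2 -1.55 ± 0.17) also fell. The protein kinase A subunit gene Prkar2a fell 2.73-fold, the adenylyl cyclase gene Adcy2 2.29-fold and the G protein regulator Rgs2 2.36-fold. Control library 2 of Adcy2, at 3.67 CPM, lay below the H/R libraries, and the other 3 lay above them. Gnai2 (512, 532 and 529 CPM in control, H/R and LITAF) and Gnas (702, 810 and 834 CPM), for the inhibitory and stimulatory G proteins of these receptors, did not pass in H/R or LITAF. In LITAF against H/R, 0 of 26 passed by edgeR's test, and Rapgef4 was at 38.0 CPM in the LITAF group.

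**Figure D4:**
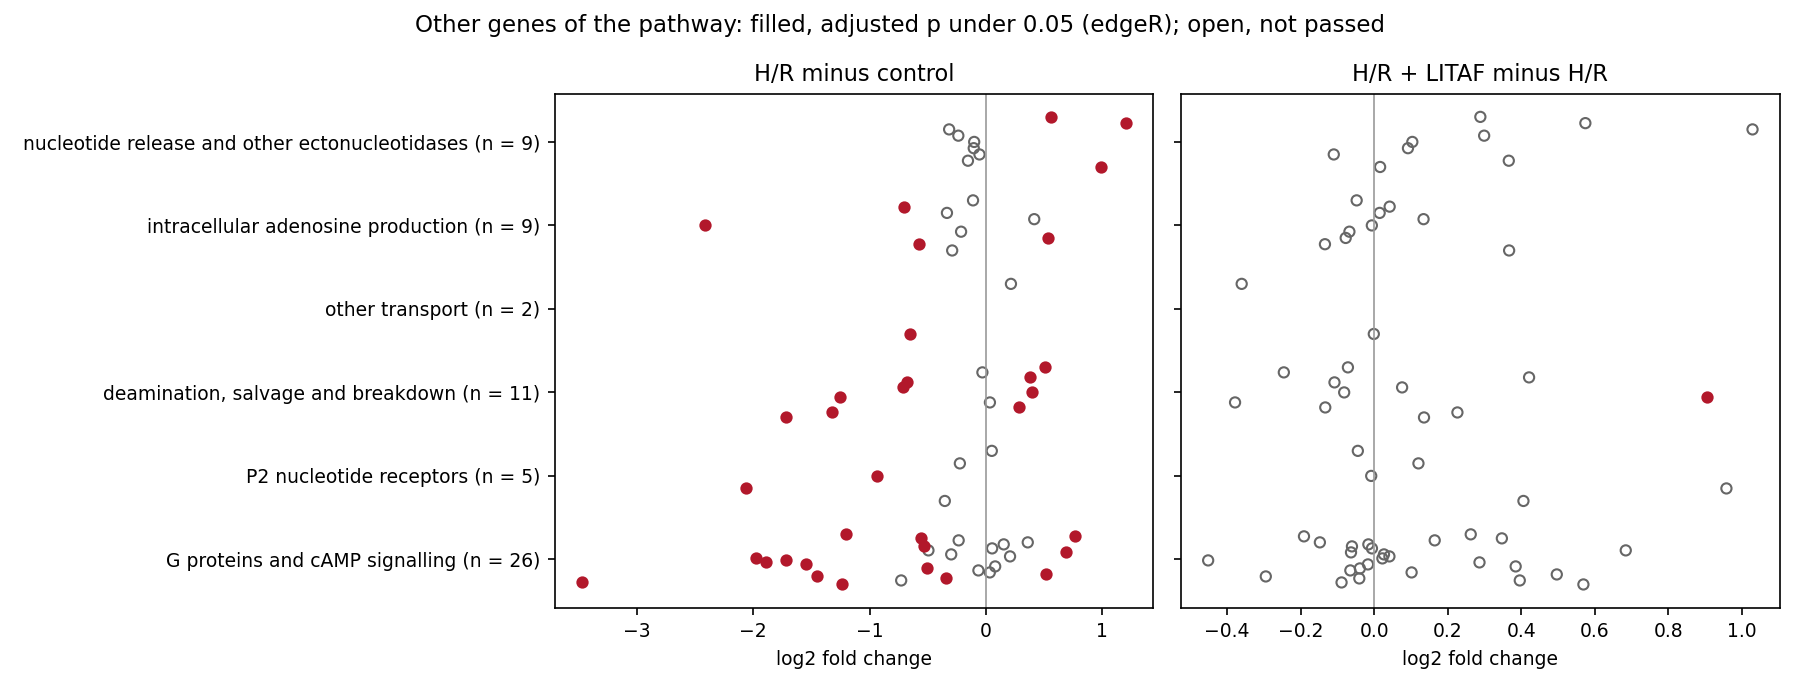
Log2 fold changes (horizontal axes, different scales) of the 62 tested genes of the wider pathway, 1 point per gene, by role (vertical axis, number tested in brackets), for H/R minus control on the left and H/R + LITAF minus H/R on the right. Filled points passed at an adjusted p under 0.05 by edgeR's test: 34 on the left and 1, Ampd3, on the right.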

How the data were processed

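Polyadenylated RNA of 12 H9C2 libraries was sequenced, per the labels' protocols. Raw reads per Ensembl rat gene were deposited by the authors, per the file headers, and some are fractional, so each deposited value was treated as an estimated count. The submitters' processing notes list DESeq2 and edgeR but not what each did. The sources used here name no aligner, counter, build or strand setting, so reads of overlapping or near-identical genes are uncertain. Groups and replicate numbers came from the sample titles.

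Of 16204 rows, 258 shared an ID with another row. Identical copies were merged, and 72 IDs whose rows differed were left out, Adal among them. Counts were rounded, filtered with edgeR's filterByExpr (11398 genes left) and scaled by TMM. One fit with a mean per group over all 12 libraries gave log2 changes, with SE taken from the F statistic, and two-sided quasi-likelihood F-tests (edgeR 4.0.16, limma 3.58.1, R 4.3.3; DESeq2 1.42.0 as an alternative) with Benjamini-Hochberg adjustment over all genes at 0.05. The common biological coefficient of variation was 14.5%. On simulated counts for LITAF against H/R (11247 genes) 65 of 66 genes were called at a simulated 4-fold change, 61 of 67 at 2-fold and 32 of 67 at 1.5-fold. The changed genes were drawn only from those above a minimum expected count, so these shares do not cover genes with fewer reads, such as Adora2b.

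Deviations from the group means correlated across genes between libraries of 1 number, at 0.32 to 0.56 for control and H/R, 0.14 to 0.36 for H/R and LITAF, and 0.07 to 0.17 for control and LITAF. Each control library correlated best with the H/R library of its own number. Against the LITAF libraries, the best match had another number for every control library and for all H/R libraries but library 3. The labels name no source for the likeness of control and H/R libraries of the same number.

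The members and lists were chosen with earlier results of these data known. Named genes were the 8 genes, Litaf, up to 4 called genes per role list and comparison with the smallest adjusted p, genes of the lists past 2-fold, lists of 3 or fewer measured genes in full, and for the 3 of the 8 with the largest changes the 3 genes nearest in their pair of log2 changes. Other names (Gnai2, Gnas, Ahcy, Hprt1, Mtap, Ak1, Ampd2, Adsl, Slc29a4, and markers) were added after their values were seen. Some results that the rule would name are not reported here. Alternatives changed the scaling, filter, tool, libraries, block, threshold or handling of repeated IDs.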

Additional observations from a re-analysis of the deposited data

Results flagged for a closer look

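Of 102 groups of 4 libraries, those with fewer than 4 reads in total were not checked, among them all groups of Adora2a. In the rest, 3 had a library far from the others by Dixon's criterion at 95%, where chance gives about 1 in 20. Adora1 was at 3.58 CPM in LITAF library 1 and 4.89 to 5.13 CPM in the other 3. Entpd1 was at 11.7 CPM in LITAF library 1 and 16.6 to 17.5 CPM in the other 3. Nt5c3a was at 22.4 CPM in LITAF library 4 and 25.2 to 25.7 CPM in the other 3.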

How the results depend on the processing

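For LITAF against H/R, where 1 gene of the pathway list and 556 of all genes passed, the list count was 2 with DESeq2's size factors or upper-quartile scaling, 3 with library totals alone or DESeq2, 4 in a fit of the 2 groups alone and 0 at an adjusted p under 0.01, with 9 higher and 4 lower at an unadjusted p under 0.05 by edgeR. The count over all genes was 902 with DESeq2, 873 with the replicate block, 1098 with the 2 groups alone and 182 at an adjusted p under 0.01. Rises made up 76.4% of these calls with TMM, 61.0% with library totals and 66.5% with upper-quartile scaling. Leaving out each library in turn gave 0 to 5 for the list and 244 to 1285 over all genes, highest for both without LITAF library 1. Against control the list count was 34 for both comparisons. It ran from 29 to 34 for H/R and 31 to 37 for LITAF with a library left out. The replicate block gave list counts of 1, 35 and 35 and changed no call of a named pathway gene. The scalings moved the median of all genes for H/R against control to log2 0.13 with library totals and 0.12 with upper quartiles. Under the alternatives, 333 values of the 7 tested genes moved by less than the spread between libraries. The other 2 were Nt5e without control library 2, at log2 0.11 for H/R and 0.62 for LITAF against control. In genes with few reads (Adora2b, Nt5e, Slc29a1 and Ada) counting error limits the precision, and Adora2a could not be compared.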
